A study of Mus musculus with 18 samples.

Results

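Metallothioneins are small, cysteine-rich proteins that bind zinc and copper and, when they are present, toxic metals such as cadmium and lead. The 4 mouse genes Mt1, Mt2, Mt3 and Mt4, among 18194 genes measured, were taken as every probe set annotated to exactly 1 of these symbols on the Affymetrix Mouse Genome 430 2.0 array. The rule found 5 probe sets among the 34958 that carry a single gene symbol and the 45101 on the array. Mt1 had 2 probe sets, 1422557_s_at and 1451612_at, and the other genes had 1 each, 1428942_at for Mt2, 1420575_at for Mt3 and 1450645_at for Mt4. No probe set paired a member symbol with another gene symbol, although the suffix _s_at marks a set whose probes can match transcripts of more than 1 gene.

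The arrays came from whole brains of pups killed on postnatal day 8, in the period of synapse formation. The 3 genotypes were Mt-KO (-/-), the heterozygote HET (+/-) and wild-type C57BL/6J (+/+, called WT here), all offspring of a final brother-sister cross after at least 7 generations of backcrossing Mt-KO mice to C57BL/6J. In each genotype, 5 pups received lead acetate at 50 mg/kg by injection 2 times a day on days 7 and 8, and 5 weight-matched pups received saline at the same times. RNA of the 5 pups of a group, described as males and females, was pooled onto 1 array, 6 hours after the last injection. No combination of genotype and treatment was therefore replicated. The labels do not say which metallothionein genes, or which part of them, the Mt-KO allele alters, so signal left in Mt-KO pools neither checks nor contradicts the label.

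Mt1 and Mt2 are made in most tissues, in the brain mainly by astrocytes, and are induced by metals, glucocorticoids and oxidative stress. Metal induction runs through the zinc-sensing transcription factor MTF1, which binds metal response elements in their promoters. Mt3, first described as a growth inhibitory factor, is enriched in the brain and responds little to metals, and Mt4 belongs to stratified squamous epithelium such as skin. In the gene table of GRCm38.p6 the family forms a single block in the order Mt4, Mt3, Gm39227, Mt2 and Mt1.

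The windows upstream of the annotated starts were searched for known control elements. The 250 bases before the annotated start of Mt1, Mt2 and Mt3 are printed from the RefSeq promoter table (GRCm38.p6, plus strand), at chr8:94178839-94179088, chr8:94172368-94172617 and chr8:94152357-94152606. Capitals mark the 7-base core of the metal response element, TGCACNC or TGCGCNC, on either strand.

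Mt1: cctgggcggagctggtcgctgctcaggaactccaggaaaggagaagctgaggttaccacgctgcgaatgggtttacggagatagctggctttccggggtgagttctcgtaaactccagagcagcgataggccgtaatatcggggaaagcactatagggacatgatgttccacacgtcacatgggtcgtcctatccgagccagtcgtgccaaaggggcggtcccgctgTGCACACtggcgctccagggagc

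Mt2: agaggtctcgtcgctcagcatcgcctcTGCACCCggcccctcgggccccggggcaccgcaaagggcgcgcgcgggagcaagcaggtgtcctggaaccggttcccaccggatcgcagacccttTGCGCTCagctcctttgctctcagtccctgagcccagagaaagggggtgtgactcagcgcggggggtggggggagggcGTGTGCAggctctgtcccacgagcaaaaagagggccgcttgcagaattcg

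Mt3: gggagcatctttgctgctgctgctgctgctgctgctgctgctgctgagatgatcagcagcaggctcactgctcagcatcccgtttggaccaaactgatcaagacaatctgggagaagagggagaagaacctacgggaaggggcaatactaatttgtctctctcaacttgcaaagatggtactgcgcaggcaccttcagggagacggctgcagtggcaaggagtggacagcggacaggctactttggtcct

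The Mt2 window held 3 cores, at -223, -128 and -50 from the start, the Mt1 window held 1 at -23, and the Mt3 window held 0. The Mt4 window, chr8:94136954-94137203, also held 1, at -91 on the minus strand. Of 32851 promoter windows in the table, 21.4% held at least 1 core and 1.26% held at least 3. The palindromic glucocorticoid response element matched the Mt1 window at -94, and 0.387% of windows held a match. The antioxidant response element core, TGACNNNGC, matched the Mt2 window at -79, and 10.2% of windows held one. Only the 250 bases before each annotated start were searched. Elements downstream of that start or further upstream were not counted, so the counts do not rank the promoters. These matches describe letters in the windows and carry no measurement of binding.

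Each array had been summarised by the authors in 3 ways, RMA and GC-RMA on the log2 scale and PLIER as linear intensity. Values in the text are RMA unless stated, and levels are compared only within a probe set, since brightness also depends on the probes. Tests were made in 1 additive limma fit (genotype plus treatment) over the 6 RMA arrays and the 20975 single-symbol probe sets in the upper 60% by mean brightness. P-values were adjusted by Benjamini-Hochberg over all of them, with a threshold of 0.05. The spread in this fit is the departure from additivity with 2 residual degrees of freedom, shared across probe sets, and not a spread between replicate pools. Of the 5 member probe sets 4 passed the brightness minimum of 8.92, and Mt4 did not.

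The pools differed in ways the genotypes and treatments do not name. Array-to-array correlations lay between 0.979 and 0.993. The difference between the 3' and 5' Gapdh control probe sets was 1.19 in the WT saline pool and 0.54 to 0.82 in the other 5. The Y-linked Eif2s3y (1417210_at) read 11.16 in the Mt-KO lead pool, 6.50 in the Mt-KO saline pool and 9.45 to 10.45 in the HET and WT pools. Kdm5d (1424903_at) and Uty (1426598_at) fell likewise, from 9.13 and 9.09 in the Mt-KO lead pool to 6.07 and 6.23 in Mt-KO saline. Xist (1427262_at) went the other way, at 7.14 in Mt-KO lead, 12.63 in Mt-KO saline and 11.50 to 12.76 in the HET and WT pools. Another Xist probe set, 1436936_s_at, read 10.23 in Mt-KO lead and 12.75 in Mt-KO saline. These values do not bear out the description of males and females for the Mt-KO pools. In Mt-KO, lead and the sex makeup of the pools can therefore not be told apart. Transcripts of the pituitary hormone genes Gh (1460310_a_at) and Pomc (1433800_a_at) were highest in the HET lead pool, at 11.48 and 10.96. In bulk tissue fewer cells of a type and less RNA per cell cannot be told apart.

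The brighter Mt1 probe set, 1422557_s_at, was lowest in Mt-KO, intermediate in HET and highest in WT, and the fall in Mt-KO passed the test. Its RMA values were 11.71 and 11.68 in the Mt-KO lead and saline pools, 12.87 and 12.45 in the HET lead and saline pools, and 13.30 and 13.17 in the WT lead and saline pools. The genotypes did not overlap, and the 2 Mt-KO pools lay closer to each other than the pools of either other genotype. Such an order without overlap, Mt-KO below HET below WT, was held by 256 of the 20975 probe sets tested (1.22%). The Mt-KO signal was 2.91-fold below that of WT (log2 difference -1.54, SE 0.21, 95% interval -1.98 to -1.09, limma adjusted p = 0.00269). It was lower within both treatments, by -1.59 in the lead pools and -1.49 in the saline pools. Counted from the most negative difference between Mt-KO and WT, it ranked 6 among the 20975.

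Of the 20975 probe sets 0.4% passed the test between Mt-KO and WT in either direction, with 0.324% (68) higher and 0.0763% (16) lower in Mt-KO. Of the 4 member probe sets tested, 1 was lower and 0 were higher. The Mt1 call was lost without the Mt-KO lead array (adjusted p = 0.659) and without the Mt-KO saline array (0.429), where the remaining array stood alone for its genotype. It was also lost with GC-RMA (0.0975), quantile normalisation (0.0504), no brightness minimum (0.0742) and the probe set's own spread (0.968). Without the WT saline array the difference was -1.49, and without the WT lead array -1.59.

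**Figure D1:**
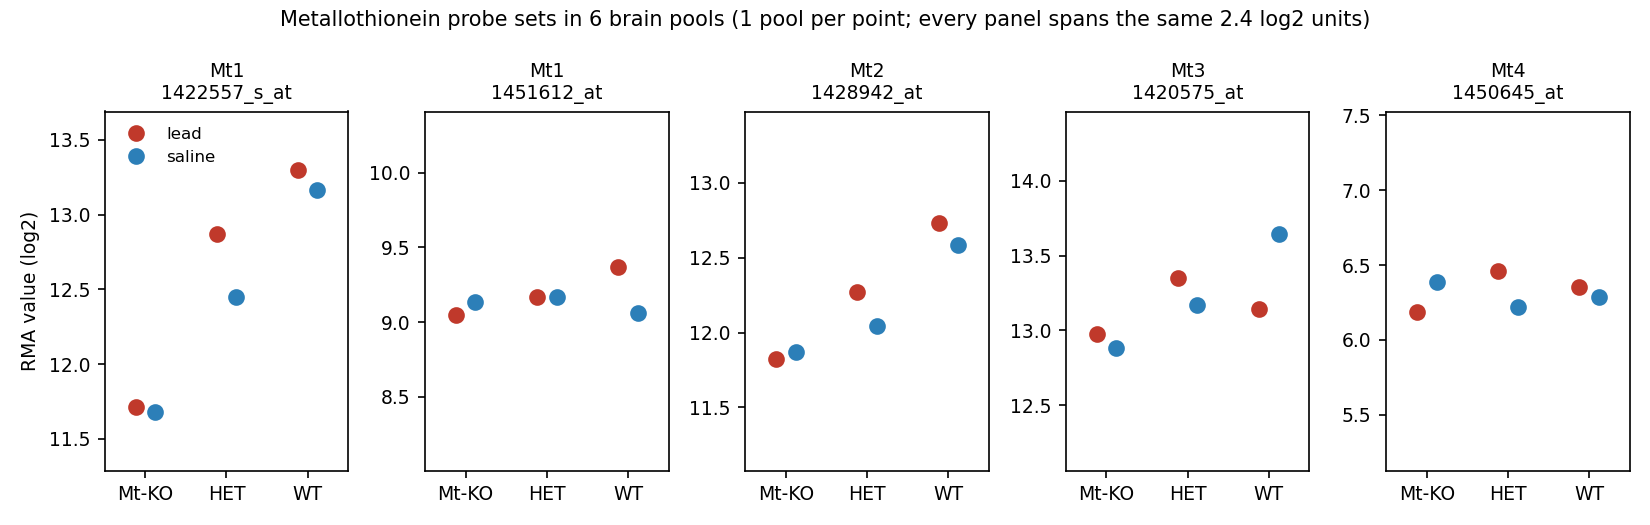
RMA value (log2) of each metallothionein probe set in the 6 pools, with genotype on the horizontal axis (Mt-KO, HET, WT), lead in red and saline in blue, 1 pool per point. Mt1 1422557_s_at runs from 11.68 in the Mt-KO saline pool to 13.30 in the WT lead pool, Mt2 shows the same order over a narrower range, and Mt4 stays between 6.19 and 6.46.

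Mt2, whose gene lies next to Mt1, showed the same order over a smaller range. It read 11.82 and 11.87 in the Mt-KO lead and saline pools, 12.27 and 12.05 in the HET lead and saline pools, and 12.73 and 12.59 in the WT lead and saline pools. Again the genotypes did not overlap. The Mt-KO value was 1.75-fold lower than WT (log2 -0.81, SE 0.19, 95% interval -1.22 to -0.40), which did not pass the limma test (adjusted p = 0.0889). It ranked 25 among the 20975 from the most negative difference. Mt2 passed with both PLIER settings (0.0313 and 0.0322), with arrays centred on their medians (0.0413), with the upper 40% by brightness (0.0102) and with 1 probe set per gene (0.0214). It also passed without the WT lead or WT saline array, when 7161 and 4321 of all probe sets passed in place of 84.

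Mt3, the brain-enriched member, was lower in both Mt-KO pools than in both WT pools with RMA, but not beyond the spread. Its values were 12.98 and 12.88 in the Mt-KO lead and saline pools, 13.35 and 13.17 in the HET lead and saline pools, and 13.14 and 13.64 in the WT lead and saline pools. The WT saline pool was the highest and the HET pools overlapped the WT range. A position of both Mt-KO pools below both WT pools was held by 17.3% of the probe sets tested. It did not hold with log2(PLIER+16), where the Mt-KO lead pool, at 12.67, lay above the WT lead pool, at 12.58. The difference between Mt-KO and WT was -0.46 (SE 0.26, 95% interval -1.01 to 0.09, limma adjusted p = 1). It was -0.14 without the WT saline array and -0.78 without the WT lead array, where it passed (adjusted p = 2.7e-04).

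The dimmer Mt1 probe set, 1451612_at, did not follow the brighter one. It read 9.05 and 9.13 in the Mt-KO lead and saline pools, 9.17 and 9.17 in the HET lead and saline pools, and 9.37 and 9.06 in the WT lead and saline pools. Its genotypes overlapped, and the difference between Mt-KO and WT was -0.12 (SE 0.13, 95% interval -0.41 to 0.16, limma adjusted p = 1). With GC-RMA, which corrects for probe base content, it stayed between 3.22 and 3.29 on every array, where the median of all probe sets was 3.33 to 3.60. Over the 6 pools the Pearson correlation of the 2 Mt1 probe sets was 0.48 with RMA, 0.23 with GC-RMA and 0.87 with log2(PLIER+16).

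Mt4, the epithelial member, was dim in every pool. It read 6.19 and 6.39 in the Mt-KO lead and saline pools, 6.46 and 6.22 in the HET lead and saline pools, and 6.35 and 6.29 in the WT lead and saline pools. The genotypes overlapped. In the fit without a brightness minimum, Mt4 differed by -0.03 between Mt-KO and WT and by 0.03 between lead and saline (limma adjusted p = 1 for both).

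**Figure D2:**
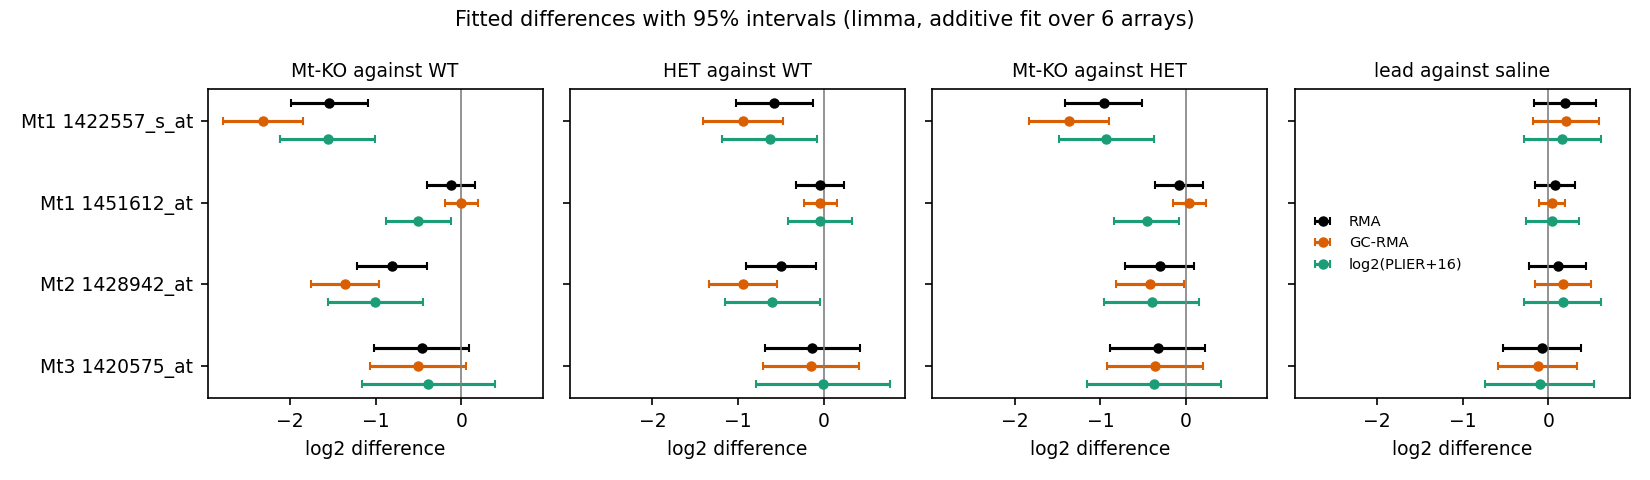
Fitted log2 differences with 95% intervals for the 4 member probe sets tested, with RMA in black, GC-RMA in orange and log2(PLIER+16) in green. The Mt1 1422557_s_at interval lies below 0 between Mt-KO and WT for all 3 summaries (-1.98 to -1.09 with RMA), and every interval between lead and saline includes 0.

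The size of the genotype difference depended on the summary. With GC-RMA the brighter Mt1 probe set read 10.15 and 10.02 in the Mt-KO lead and saline pools, 11.69 and 11.22 in the HET lead and saline pools, and 12.41 and 12.39 in the WT lead and saline pools. Mt-KO was then 4.97-fold below WT (log2 -2.31, SE 0.19). Mt2 was 2.56-fold lower with GC-RMA (log2 -1.36, SE 0.16, adjusted p = 0.158).

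The PLIER intensities of Mt1 were 1746 and 1617 in the Mt-KO lead and saline pools, 3766 and 2747 in the HET lead and saline pools, and 4850 and 5117 in the WT lead and saline pools. Mt-KO was 2.95-fold below WT on the log2(PLIER+16) scale. With PLIER alone, both Mt-KO pools of the dimmer Mt1 probe set lay below all HET and WT pools. Its intensities were 304 and 285 in the Mt-KO lead and saline pools, 407 and 415 in the HET lead and saline pools, and 433.5 and 415 in the WT lead and saline pools (log2 -0.50, adjusted p = 0.322). The share of all probe sets with both Mt-KO pools below all HET and WT pools was not counted with PLIER. With RMA, both Mt-KO pools lay below both WT pools in 17.3% of those tested. The 3 summaries are readings of the same 6 arrays and not replicates.

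**Figure D3:**
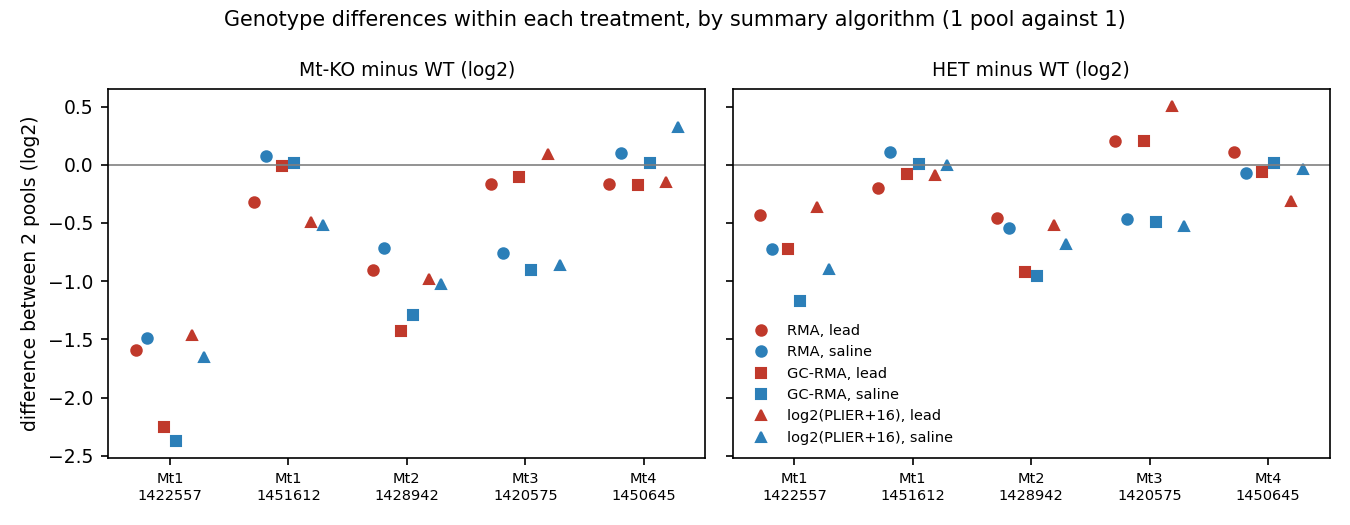
Differences between 2 pools of the same treatment (log2), Mt-KO minus WT on the left and HET minus WT on the right, for each probe set and summary, with lead in red and saline in blue. For Mt1 1422557_s_at the Mt-KO minus WT differences run from -2.37 with GC-RMA in saline to -1.47 with log2(PLIER+16) in lead, and the lead and saline points of Mt3 lie apart in all 3 summaries.

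Heterozygous pools lay between the homozygotes for the brighter Mt1 probe set and Mt2 in both treatments and all 3 summaries. The share of all probe sets with this order is not given here. With RMA the stricter order without overlap was held by 1.22% of them. The dimmer Mt1 probe set did not show the order Mt-KO below HET below WT in the saline pools of any summary. HET was below WT by -0.57 for Mt1 (95% interval -1.02 to -0.13, unadjusted p = 0.0145) and by -0.50 for Mt2 (95% interval -0.91 to -0.10, unadjusted p = 0.0187). Neither passed adjustment in limma (adjusted p = 1 for both), a test that 1 of all probe sets (0.00477%) passed. The corresponding values were -0.13 for Mt3 and -0.04 for the dimmer Mt1 probe set (adjusted p = 1 for both). Without the WT lead array Mt1 (-0.62), Mt2 (-0.47) and Mt3 (-0.45) passed, and without the WT saline array Mt1 (-0.53) and Mt2 (-0.53) passed, alongside 3883 and 3648 of all probe sets.

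Mt1 was lower in Mt-KO than in HET by -0.96 (SE 0.21, limma adjusted p = 0.228), Mt2 by -0.31 and Mt3 by -0.33. None of the 4 member probe sets passed in this comparison, against 11 of 20975 (0.0524%), of which 0.0429% were higher and 0.00954% lower in Mt-KO. Without the WT lead array, or without the WT saline array, 2 of the 4 passed, alongside 849 and 860 of all probe sets in place of 11. Of the log2 distance between WT and Mt-KO, HET pools had covered 27.1% in the lead pools and 48.3% in the saline pools for Mt1. The shares for Mt2 were 50.9% in the lead pools and 75.8% in the saline pools. HET differed from the midpoint of WT and Mt-KO by 0.19 for Mt1 (95% interval -0.19 to 0.58) and by -0.10 for Mt2 (95% interval -0.45 to 0.26), and 0% of probe sets passed that test (227 at an unadjusted p under 0.05). The 3 genotype comparisons share their arrays and are not independent.

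No member passed the test between lead and saline, 6 hours after the last injection. The brighter Mt1 probe set was 1.15-fold higher in lead than in saline pools (log2 0.20, SE 0.17, 95% interval -0.17 to 0.56), an interval that spans 0.891-fold to 1.47-fold. Mt2 differed by 0.11 (SE 0.16, 95% interval -0.23 to 0.44), the dimmer Mt1 probe set by 0.08 and Mt3 by -0.08, with limma adjusted p = 1 for all. Of all probe sets tested, 0% passed the limma test between lead and saline, 476 had an unadjusted p under 0.05, and 69 passed with log2(PLIER+16), none of them a member.

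Within genotypes, the lead and saline pools of Mt1 differed by 0.03 in Mt-KO, 0.42 in HET and 0.13 in WT. With RMA, the only summary in which this share was counted, a value higher in lead in all 3 genotypes was held by 11.5% of probe sets. Among the 5 member probe sets it was held by the brighter Mt1 probe set alone. That direction depended on the summary. With GC-RMA the brighter Mt1 probe set, Mt2 and the dim Mt4 (2.67 to 2.91) were all higher in lead in the 3 genotypes. With log2(PLIER+16) Mt2 was (0.15 in Mt-KO, 0.26 in HET and 0.10 in WT), while the brighter Mt1 probe set was lower in lead in WT (-0.08). The median probe set itself shifted between the pools of a pair, so differences were also taken relative to it. They were then -0.05 in Mt-KO, 0.30 in HET and 0.26 in WT for Mt1, and -0.13 in Mt-KO, 0.10 in HET and 0.27 in WT for Mt2. The central 95% of tested probe sets lay between -0.34 and 0.32 in Mt-KO, -0.32 and 0.33 in HET, and -0.47 and 0.54 in WT, and all of these Mt1 and Mt2 values were inside. With GC-RMA, relative to the median probe set, the brighter Mt1 probe set, Mt2 and Mt4 were lower in lead in Mt-KO (-0.04, -0.11 and -0.12). They were higher in HET and WT.

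Mt3 differed by 0.01 in Mt-KO, 0.05 in HET and -0.37 in WT relative to the median probe set. In WT the saline pool was the highest of the 6 and the lead pool lay below both HET pools, so the gap cannot be assigned to either WT pool. The dimmer Mt1 probe set gave -0.17 in Mt-KO, -0.12 in HET and 0.44 in WT. A test of whether the lead difference changes with the number of intact alleles called none of the 4 members, against 2.15% of all probe sets (0.396% with a positive and 1.75% with a negative slope). Its slopes per allele were 0.05 for Mt1 (adjusted p = 0.935), 0.09 for Mt2 (0.863), 0.20 for the dimmer Mt1 probe set (0.480) and -0.30 for Mt3 (0.759), all from limma. That fit has 1 residual degree of freedom, and the median slope of all probe sets was -0.12. It also takes in the 2 Mt-KO pools, which differ in sex-linked transcripts.

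**Figure D4:**
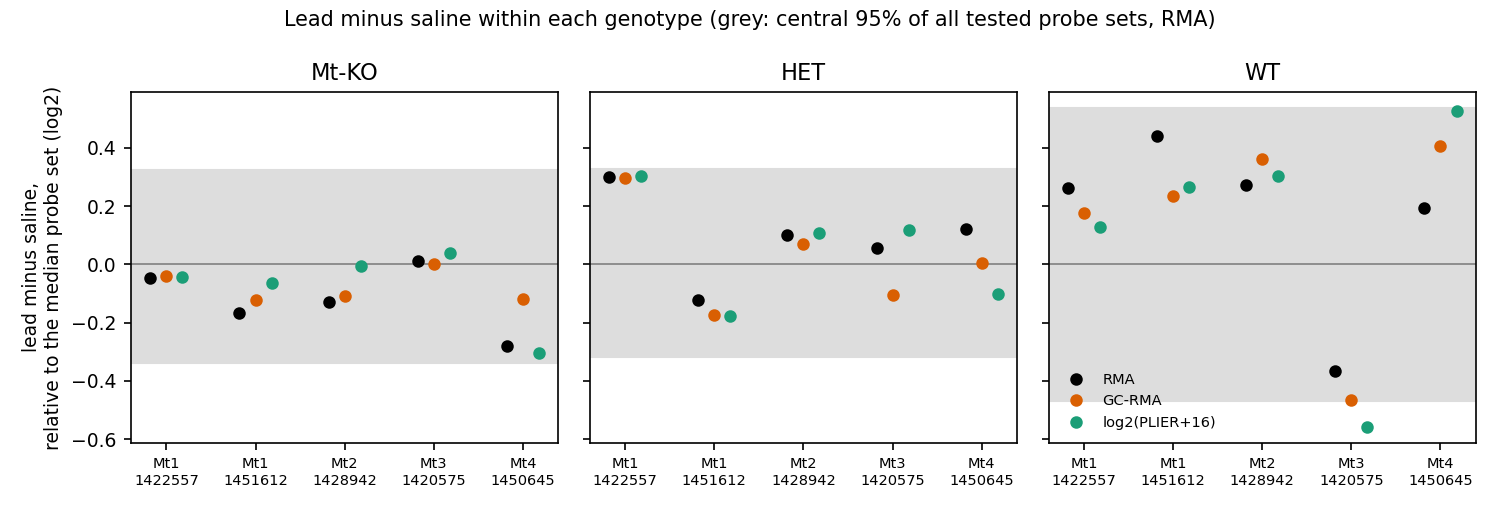
Lead minus saline within Mt-KO, HET and WT (log2, relative to the median probe set of each array pair), for the 5 member probe sets in 3 summaries. Grey bands hold the central 95% of tested probe sets with RMA (-0.34 to 0.32 in Mt-KO), and the RMA points of Mt1, Mt2, Mt3 and Mt4 lie inside them.

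The genes around the block were described to see whether the difference between Mt-KO and WT extends to neighbours. The 10 listed genes on each side gave 21 tested probe sets for 13 genes. None passed in any of the 6 comparisons, which 0% to 2.15% of all probe sets passed (0.4% between Mt-KO and WT). At such shares a count of 0 among 21 says little about the neighbours. Between Mt-KO and WT their median was -0.09, from -0.39 to 0.28, beside a median of -0.02 over all probe sets. Of the nearest measured genes, Bbs2 of the ciliary BBSome differed by 0.27, the prolyl hydroxylase gene Ogfod1 by -0.15 and the nuclear pore gene Nup93 by 0.11 (limma adjusted p = 0.992, 1 and 1). Mir138-2 was below the brightness minimum.

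**Figure D5:**
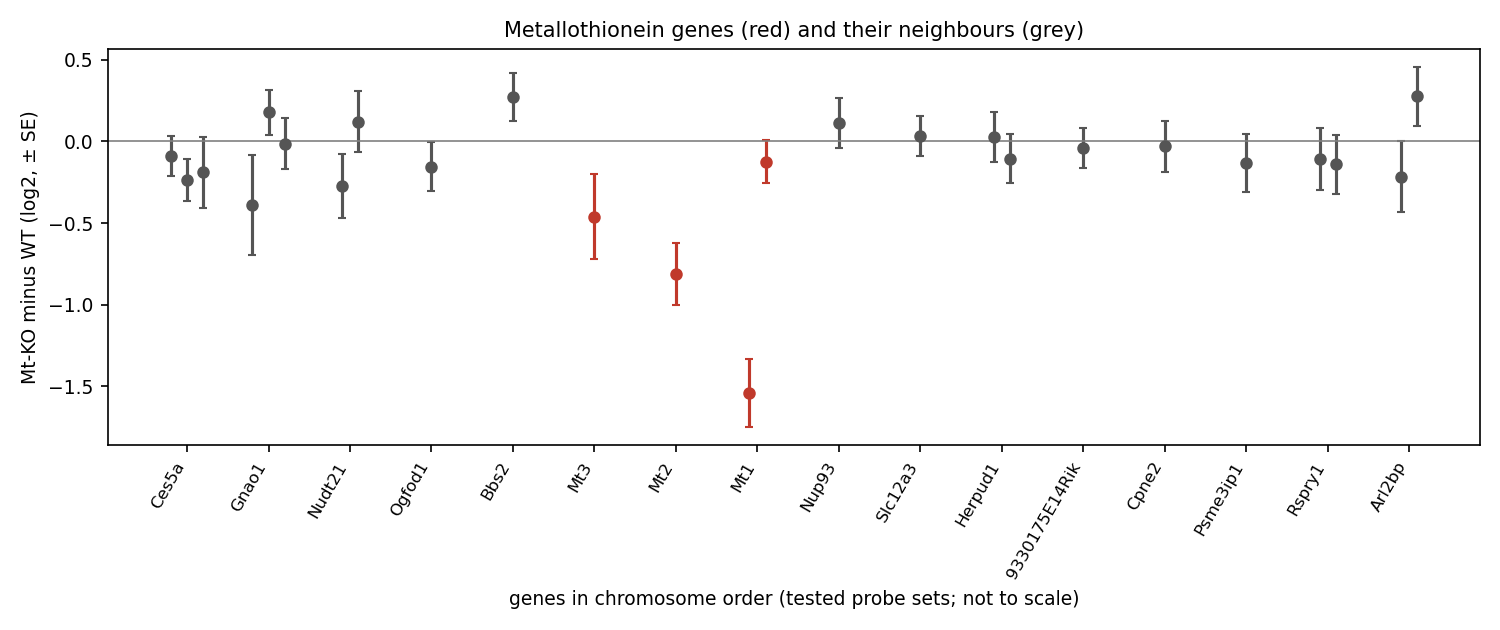
Mt-KO minus WT (log2, with SE bars) for tested probe sets of the metallothionein genes in red and of their neighbours in grey, in chromosome order. Mt1 1422557_s_at at -1.54 and Mt2 at -0.81 lie below every neighbour, the lowest of which is at -0.39.

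Over the 6 pools and relative to each array's median, the probe sets most like the brighter Mt1 probe set were those of Csnk2a1, Mt2, Prdx2, Ap2b1 and Glul. Their Pearson correlations were 0.954, 0.953, 0.952, 0.948 and 0.937, among 552 probe sets with an SD of at least 0.3. The pools share genotype, and 21 of those probe sets reached 0.9. Prdx2, a peroxiredoxin gene on the same chromosome, read 10.54 and 10.31 at 1430979_a_at in the Mt-KO lead and saline pools, 12.35 and 12.32 in the HET lead and saline pools, and 12.66 and 13.11 in the WT lead and saline pools. It was lower in Mt-KO than in WT by -2.46 (SE 0.20, limma adjusted p = 3.26e-05). The other Prdx2 probe set, 1418506_a_at, differed by -0.09 (adjusted p = 1).

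The other tested probe sets of Csnk2a1, Ap2b1 and Glul gave smaller differences, some of the opposite sign. Csnk2a1, a casein kinase subunit gene, differed by -0.64 at 1419034_at, and its 3 other tested probe sets lay between -0.17 and 0.29. Ap2b1, a clathrin adaptor subunit gene, gave -0.88 at 1452292_at and 0.07 at 1427077_a_at. Glul, the astrocytic glutamine synthetase gene, gave -0.70 at 1426236_a_at and -0.27 at 1426235_a_at. None of the probe sets of Csnk2a1, Ap2b1 and Glul passed between Mt-KO and WT.

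Astrocyte markers were read beside the Mt1 difference, since Mt1 and Mt2 are astrocyte transcripts in brain. Of 26 marker probe sets for 10 genes, 1 was lower in Mt-KO than in WT and 0 were higher, beside 0.0763% and 0.324% of all probe sets. Their median was -0.15, beside -0.02 over all probe sets. The lower one was Slc1a2 (1439940_at), a glutamate transporter gene, at 9.89 and 9.39 in the Mt-KO lead and saline pools, 10.33 and 9.74 in the HET lead and saline pools, and 10.51 and 10.44 in the WT lead and saline pools (log2 -0.84, SE 0.15, limma adjusted p = 0.0266). Single probe sets of the gap junction gene Gja1 (1415801_at), the water channel gene Aqp4 (1425382_a_at) and the glutamate transporter gene Slc1a3 (1426341_at) differed the other way between Mt-KO and WT, by 0.63, 0.66 and 0.61 on the log2 scale, and did not pass (limma adjusted p = 0.0892, 0.171 and 0.259). The summed level of the list was 16.92 and 16.66 in the Mt-KO lead and saline pools, 17.18 and 16.78 in the HET lead and saline pools, and 16.99 and 17.00 in the WT lead and saline pools on the log2 scale. None of the probe sets of the 9 other marker lists passed between Mt-KO and WT. Their medians were -0.22 for 18 neuron probe sets, -0.46 for 6 of choroid plexus (Ttr and Clic6), -0.58 for 4 of liver (Ttr again), -0.15 for 2 of red blood cells and -0.12 to 0.07 in the other 5 lists. The summed level of the choroid plexus list was 16.43 and 16.13 in the Mt-KO lead and saline pools, 17.03 and 16.45 in the HET lead and saline pools, and 16.65 and 16.97 in the WT lead and saline pools. That of the neuron list was 17.32 and 17.12 in the Mt-KO lead and saline pools, 17.57 and 17.22 in the HET lead and saline pools, and 17.34 and 17.67 in the WT lead and saline pools. The part of these cell types in the Mt1 difference was not tested.

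Genes that share regulators or metal handling with the family did not pass between lead and saline or between Mt-KO and WT. Of all probe sets 0% and 0.4% passed these tests, so the absence of calls says little about the lists. The list of metal-responsive genes and MTF1 had 20 tested probe sets, with a median of 0.04 between lead and saline (all probe sets 0.02) and of -0.01 between Mt-KO and WT (all probe sets -0.02). Its zinc exporter Slc30a1, a known MTF1 target, gave -0.12 at 1422786_at between lead and saline, and its zinc importer Slc39a10 gave 0.62 between Mt-KO and WT (limma adjusted p = 0.0768). Medians between lead and saline were 0.01 for 26 glucocorticoid-response probe sets, 0.06 for 15 of STAT3 and the acute phase, 0.01 for 13 of NRF2 and oxidative stress, and -0.02 for 20 of other zinc and copper genes. Between Mt-KO and WT they were -0.11, -0.01, 0.09 and -0.02 in that order.

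Between lead and saline the glucocorticoid-induced Fkbp5 gave 0.22, the STAT3 feedback inhibitor Socs3 0.20 and the copper-zinc enzyme gene Sod1 -0.39 (1451124_at), with adjusted p = 1 for each in limma. Between Mt-KO and WT the thioredoxin reductase gene Txnrd1 gave 0.66 (adjusted p = 0.133). In the allele slope of lead, 2 of the 94 probe sets of these lists passed, a share near the 2.15% of all probe sets. They were the glucocorticoid receptor gene Nr3c1 (1457635_s_at, -0.48, adjusted p = 0.00932) and Txnrd1 (1424486_a_at, 0.43, adjusted p = 0.0172).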

How the data were processed

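Gene expression was measured in 6 pools of whole-brain RNA, 1 array each. Per the labels, the authors deposited every array in 3 summaries, made with RMA, GC-RMA and PLIER, with Partek also named in the submitters' processing notes. RMA and GC-RMA columns were deposited as log2 values, and PLIER columns as linear intensity. The sources used here give no version or setting. The labels name a whole-transcript labelling kit while the probe sets are those of a 3' expression array. Gene symbols came from the platform annotation, which can be old, updated through the GRCm38.p6 gene table. Depth in reads has no counterpart here, and the number of arrays limits the precision.

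From the deposited values, limma 3.58.1 in R 4.3.3 fitted genotype plus treatment to the 6 RMA arrays (lmFit, eBayes with trend, two-sided), on single-symbol probe sets in the upper 60% by mean RMA value. The test of lead by allele number added 1 linear term. PLIER was used as log2(intensity + 16). The script was tested on simulated data. Tables and promoter motif searches used Python 3.11.15 with pandas 2.3.3.

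The members and lists were chosen with earlier results of these data known. Every member probe set is named. From each related list at most 4 probe sets with the largest absolute t could be named, from the neighbours the 4 nearest measured genes and any called, and the 5 probe sets of other genes most correlated with the brighter Mt1 probe set among those with an SD of at least 0.3. Alternatives were the summary, pseudocount, normalisation, brightness minimum, gene-level fits, moderation, threshold, model terms and leaving out each array.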

Additional observations from a re-analysis of the deposited data

How the results depend on the processing

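The difference between Mt-KO and WT at the brighter Mt1 probe set was negative in all 20 alternatives and did not pass in 6 of them. It lay between -2.31 and -1.42, apart from -0.83 where both Mt1 probe sets were averaged. That of Mt2 was negative in all 20 (-1.36 to -0.70) and passed in 8. The number of member probe sets passing between Mt-KO and WT was 1. It was 0 with GC-RMA, quantile normalisation, no brightness minimum and own spread, 2 with both PLIER settings, centred arrays, the upper 40% by brightness, the brightest probe set of each gene and a threshold of 0.10, and 0 to 3 when an array was left out. Leaving out an array gave 0 to 3 passing between HET and WT, and 0 to 2 between Mt-KO and HET, where the upper 40% and the brightest probe set of each gene gave 1 each. Over all probe sets, the 84 that passed between Mt-KO and WT became 2 with GC-RMA, 282 with log2(PLIER+16) and 1 with no brightness minimum. Leaving out an array gave 37 to 7161. With an array left out, 4 to 3972 probe sets passed between lead and saline in place of 0, 7 to 3883 between HET and WT in place of 1, 14 to 860 between Mt-KO and HET in place of 11, and 4 to 1579 around the midpoint in place of 0. The highest counts of the first 2 came without the WT lead array and of the last 2 without the WT saline array. Other settings gave up to 70, 60, 115 and 54 for these 4, all with PLIER, and 0 (quantile normalisation) to 1557 (no brightness minimum) for the allele slope in place of 450. Of the 5 probe sets most like Mt1, 0 were kept among the first 5 with GC-RMA and 2, Mt2 and Glul, with log2(PLIER+16).

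Signs changed in 24 values, none of which passed. Leaving out an array gave -0.042 to 0.16 for the dimmer Mt1 probe set and -0.20 to 0.14 for Mt3 between lead and saline. It gave -0.30 to 0.052 for the dimmer Mt1 probe set between Mt-KO and WT, and -0.22 to 0.13 for it and -0.45 to 0.19 for Mt3 between HET and WT. The dimmer Mt1 probe set ran from -0.20 to 0.041 between Mt-KO and HET (0.036 with GC-RMA). Around the midpoint it ran from -0.070 to 0.11 (-0.037 with GC-RMA), and Mt3 from -0.091 to 0.29. Slopes of lead per allele turned to -0.059 with GC-RMA and to -0.094 with both PLIER settings for the brighter Mt1 probe set. With PLIER they turned to -0.014 (-0.015 with a pseudocount of 1) for the dimmer one and to -0.024 in both settings for Mt2. The cause was not tested.

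With an array left out, the lone pool of a genotype is assumed to vary like the others, on 1 residual degree of freedom. The allele slope could not be fitted that way, for want of residual degrees of freedom. Each combination of genotype and treatment had 1 pool, so there were no replicates to pair. The only pairing was the genotype term of the fit, which sets lead against saline within genotypes. The dimmer Mt1 probe set and Mt4 lie near the array's background, which limits what they can show.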
